A study of Mus musculus with 9 samples.

Results

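Integrated stress response genes are described here in mouse embryonic stem (ES) cells and embryoid bodies. They are Atf3, Atf4, Ddit3, Trib3, Chac1, Asns, Vldlr, Nupr1, Slc7a11 and Sesn2, 10 of the 20660 genes that the arrays name. They were found by the RefSeq accession in the array annotation and were read by 12 probes. Total RNA was measured on 9 one-colour Agilent arrays, with 1 array for each line and day. The ES cells were of 3 genotypes, PKm1 knock-in, PKm2 knock-in and wild type, where the knock-ins are named for the M1 and M2 isoforms of pyruvate kinase, an enzyme of glycolysis. Each was sampled as undifferentiated ES cells in medium with LIF (day 0) and as embryoid bodies, aggregates that float in medium without LIF, at days 3 and 7. The study's question was the differentiation of these lines into germ layers.

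No line and day was repeated, so a day is repeated only over the 3 lines and a line only over its 3 days. Every p-value measures the spread between these arrays, and each genotype is represented by 1 line, so that genotype and line cannot be told apart. The arrays lay on 3 slides. Slide 1 held PKm1 knock-in day 3, PKm2 knock-in days 0 and 3 and wild type days 0 and 7. Slide 2, scanned on another day, held PKm1 knock-in days 0 and 7 and wild type day 3, and slide 3 held PKm2 knock-in day 7. Of the 10 ES cell markers, 10 were well above background on every array, embryoid bodies included. The log2 of their summed signal was 17.75 to 18.14 at day 0, 17.41 to 17.50 at day 3 and 16.17 to 17.79 at day 7. The brightest genes weigh most in such a sum.

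The integrated stress response begins when a kinase phosphorylates the translation initiation factor eIF2. GCN2 (Eif2ak4) responds to amino acid shortage, PERK (Eif2ak3) to unfolded protein in the endoplasmic reticulum (ER), HRI (Eif2ak1) to lack of haem and PKR (Eif2ak2) to double-stranded RNA. General translation then falls while Atf4 mRNA is translated better, and the ATF4 protein, with C/EBP partners, raises transcription of genes for amino acid supply, redox balance and feedback. The response is therefore set in large part at the level of translation and phosphorylation, which arrays of RNA do not measure. Fewer cells that express a gene and less of its RNA per cell cannot be told apart in such bulk samples.

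The C/EBP-ATF element, searched as TGATGNAA on either strand (TTNCATCA on the other), is the DNA motif through which ATF4 is known to act on Asns, Trib3, Atf3 and Chac1. It is shown to describe which of the 10 genes hold it near their start sites. Windows of 300 bases, from 250 bases before to 50 after each start site, came from RefSeq (GRCm38.p6), and all 10 genes had at least 1. In 7 of the 10 genes, and in 7 of their 11 windows, the element was found, against 3.97% of all 32851 windows. Because the 10 genes were chosen for their part in this response, this excess is a description and not a test. The stretches that hold it follow 5′ to 3′ on the gene's strand, with the match in capitals. The Trib3 match lies past the start site and the others before it.
Atf3, chr1:191183412-191183467, minus strand: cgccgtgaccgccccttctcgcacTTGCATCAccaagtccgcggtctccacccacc
Trib3, chr2:152344028-152344057, minus strand: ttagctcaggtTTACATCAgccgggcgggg
Chac1, chr2:119351025-119351080, plus strand: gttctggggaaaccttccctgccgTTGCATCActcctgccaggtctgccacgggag
Asns, chr6:7693210-7693256, minus strand: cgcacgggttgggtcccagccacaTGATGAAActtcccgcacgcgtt
Vldlr, chr19:27216796-27216851, plus strand: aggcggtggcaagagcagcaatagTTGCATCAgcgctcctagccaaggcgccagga
Nupr1, chr7:126625549-126625604, minus strand: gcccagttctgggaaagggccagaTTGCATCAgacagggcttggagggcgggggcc
Slc7a11, chr3:50443629-50443703, minus strand: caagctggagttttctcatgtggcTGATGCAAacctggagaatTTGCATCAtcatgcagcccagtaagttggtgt

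Slc7a11 held 2 matches in opposite orientation. Atf4, Ddit3 and Sesn2 held none in these windows. The cyclic AMP response element TGACGTCA was in 0 of the 10 genes and in 1.79% of all windows. The ER stress element, on either strand, was also in 0 of the 10 and in 0.119% of all windows, while 7 of 14 ER chaperone and unfolded protein response genes held it. These matches are descriptions of letters in a window. No binding was measured.

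Levels are given as log2 of the signal after each array was scaled to a common 75th percentile, and they can be compared between arrays for 1 gene, not between genes. Well above background is the scanner software's own call. Of the 10 genes, 9 were well above background on all 9 arrays. Slc7a11 was so on the day 0 arrays alone and passed the filter, which asks for 3 arrays, only through them.

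RNA of all 10 genes averaged lower at day 3 than at day 0, and the 9 that were measured at day 7 averaged higher there than at day 3. Vldlr, Nupr1, Trib3, Asns and Atf3 fell at day 3, by 2.91-fold for Asns to 37.8-fold for Atf3. Slc7a11 was at the floor of the scale there. Atf4 itself was not called in any comparison of days. Chac1 had lower day 3 levels in PKm1 knock-in and wild type cells and a higher one in PKm2 knock-in cells.

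**Figure D1:**
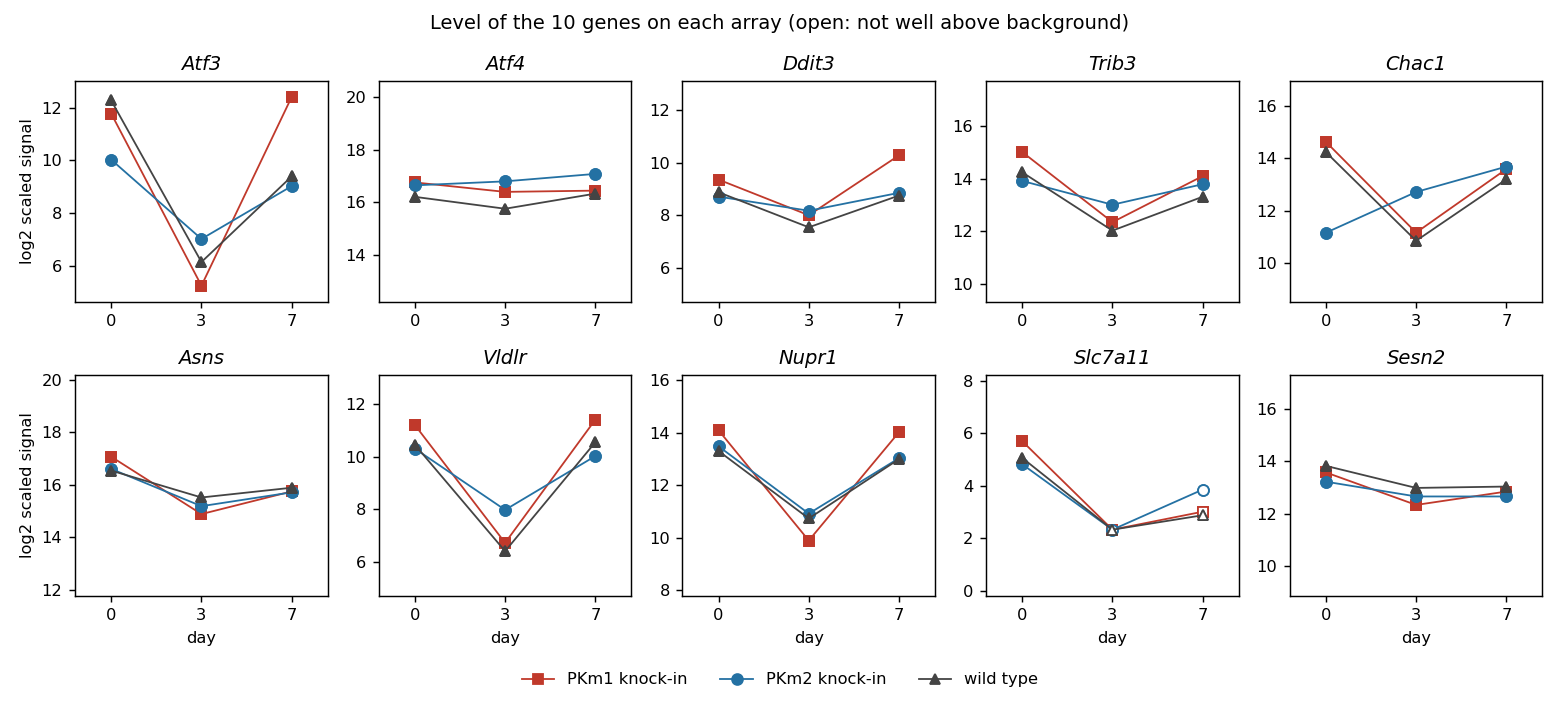
Log2 scaled signal of the 10 genes (1 panel a gene, all axes of equal span) against day for the PKm1 knock-in, PKm2 knock-in and wild type lines. Each point is 1 array, and open points are not well above background, which applies to Slc7a11 at days 3 and 7. In most panels the day 3 points lie lowest. In Atf4 this is so within the PKm1 knock-in and wild type lines but not within PKm2 knock-in. In Chac1 the PKm2 knock-in line runs upward.

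Atf4 encodes the basic leucine zipper factor at the centre of the response. Its log2 level at days 0, 3 and 7 was 16.75, 16.39 and 16.44 in PKm1 knock-in, 16.64, 16.80 and 17.08 in PKm2 knock-in and 16.21, 15.75 and 16.33 in wild type. The days overlap. Day 3 against day 0 the log2 change was -0.22 ± 0.22 (SE, limma, adjusted p = 0.564). A second Atf4 probe read 12.11, 11.22 and 11.71 in PKm1 knock-in, 11.64, 11.78 and 12.04 in PKm2 knock-in and 11.34, 10.80 and 11.41 in wild type, with the PKm2 knock-in line again without a dip at day 3.

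Atf3, a related factor that is induced by ATF4 and also by serum and wounding, had the widest range. It stood at 11.78, 5.23 and 12.42 at days 0, 3 and 7 in the PKm1 knock-in line. The PKm2 knock-in line had 10.03, 7.01 and 9.02, and wild type 12.28, 6.13 and 9.39. Every day 3 array lay under every other array. At day 3 it averaged 6.12 ± 0.89 and at day 0 11.37 ± 1.18 (SD, n = 3 each), a log2 change of -5.24 ± 0.99 (SE, limma adjusted p = 0.0444). Its residual SD around line and day was 1.54, higher than that of 97.9% of genes.

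Ddit3, which encodes CHOP, the factor linked to cell death under lasting ER stress, read 9.36, 8.0 and 10.28 at days 0, 3 and 7 in PKm1 knock-in, 8.71, 8.17 and 8.85 in PKm2 knock-in and 8.88, 7.54 and 8.75 in wild type. Day 3 lay under day 0 in each line without overlap. The log2 change of -1.08 ± 0.33 did not pass (limma adjusted p = 0.107).

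Trib3, a pseudokinase that damps ATF4 and AKT signalling, was at 15.01, 12.34 and 14.09 at days 0, 3 and 7 in PKm1 knock-in. It was at 13.91, 13.00 and 13.78 in PKm2 knock-in and at 14.24, 12.02 and 13.31 in wild type. Day 3 was lowest in each line. It averaged 12.45 ± 0.50 at day 3 and 14.38 ± 0.57 at day 0 (SD, n = 3 each), 3.82-fold lower (log2 change -1.93 ± 0.34, limma adjusted p = 0.0379).

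Nupr1, a small stress-induced chromatin protein, ran at 14.10, 9.90 and 14.03 in PKm1 knock-in at days 0, 3 and 7. In PKm2 knock-in it ran at 13.49, 10.92 and 13.04, and in wild type at 13.31, 10.74 and 13.00. The day 3 arrays stood apart from all others and days 0 and 7 overlapped. Its day 3 mean of 10.52 ± 0.55 compares with 13.63 ± 0.41 at day 0 (SD, n = 3 each), a fall of 8.64-fold (log2 change -3.11 ± 0.42, limma adjusted p = 0.0246).

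Among effectors, Asns, asparagine synthetase, had 17.07, 14.88 and 15.75 at days 0, 3 and 7 in PKm1 knock-in, 16.60, 15.18 and 15.71 in PKm2 knock-in and 16.54, 15.51 and 15.88 in wild type. All 3 days were separate, with day 7 between the others. It averaged 15.19 ± 0.32 at day 3 and 16.73 ± 0.29 at day 0 (SD, n = 3 each), with a log2 change of -1.54 ± 0.25 (limma adjusted p = 0.0335).

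Slc7a11 carries cystine into cells in exchange for glutamate and so feeds glutathione synthesis. At day 0 it was at 5.69 in PKm1 knock-in, 4.81 in PKm2 knock-in and 5.05 in wild type, and none of the day 3 and day 7 arrays read it well above background. At day 3 its log2 value was 2.32 in each line, which is the floor of the scale. Set against the lowest signal well above background on each day 3 array, it was at least 1.95-fold lower at day 3 than at day 0, and by the same measure at least 2.12-fold lower at day 7. Since the gene passed the filter only through the day 0 arrays, where it is high, these bounds are given as a description, with no test.

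Chac1, an enzyme that breaks down glutathione, departed from the others in the PKm2 knock-in line. Its level at days 0, 3 and 7 was 11.16, 12.72 and 13.68 there, 14.63, 11.17 and 13.59 in PKm1 knock-in and 14.23, 10.86 and 13.20 in wild type. The PKm2 knock-in day 0 array lay 3.27 under the mean of the other lines at that day. On that array 0.453% of the genes tested lay as far from the other lines or farther. Its day 3 array lay 1.70 above the other lines (2.52% of genes as far). Over the 3 lines the log2 change at day 3 was -1.76 ± 0.95 (limma adjusted p = 0.290), and the residual SD of 1.48 exceeded that of 97.6% of genes. Without the PKm2 knock-in day 0 array or that whole line the change was called, with a limma adjusted p down to 0.0142. Since these arrays were singled out because Chac1 departs there, this is a description and not a test. Of all 12 fits without 1 array or 1 line, 2 called it, and the limma adjusted p ran up to 0.790. It was called in 0 of 13 processing settings.

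Vldlr, a lipoprotein receptor that PERK and ATF4 are known to induce, read 11.21, 6.72 and 11.42 at days 0, 3 and 7 in PKm1 knock-in, 10.31, 7.98 and 10.03 in PKm2 knock-in and 10.46, 6.41 and 10.56 in wild type. Day 3 was separate and days 0 and 7 overlapped. It averaged 7.04 ± 0.83 at day 3 and 10.66 ± 0.48 at day 0 (SD, n = 3 each), 12.3-fold lower (log2 change -3.62 ± 0.50, limma adjusted p = 0.0254). A second, dimmer probe was also lowest at day 3 in each line, at 2.94 in PKm1 knock-in, 3.55 in PKm2 knock-in and 4.16 in wild type, where the first 2 values were not well above background.

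Sesn2, a sestrin that restrains mTORC1 and that p53 also induces, stood at 13.58, 12.34 and 12.85 at days 0, 3 and 7 in PKm1 knock-in, 13.23, 12.66 and 12.66 in PKm2 knock-in and 13.83, 12.99 and 13.04 in wild type. Days 3 and 7 overlapped under day 0. The log2 change at day 3 was -0.88 ± 0.20 (limma adjusted p = 0.0643).

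Of the 9 genes measured on all arrays, 5 were called lower at day 3 than at day 0 and 0 higher, where 4.06% of the 15013 genes tested were called in either direction and 2.2% lower. Slc7a11 is left out of this count, because its passing the filter fixed the direction. In 7 of the 9 all day 3 arrays lay under all day 0 arrays, against 14.1% of genes. The median log2 change of the 9 was -1.76, against 0.09 over all genes tested. Because the members were chosen with earlier results of these data known, these shares are a description and not a test of the set.

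The size of the day 3 change differed between lines, each read from a single pair of arrays with no test. The median log2 difference of the 9 genes was -2.67 in PKm1 knock-in, -0.91 in PKm2 knock-in and -2.22 in wild type. The PKm2 knock-in pair is the only one of these that lies on 1 slide. Within it Vldlr differed by -2.33, Nupr1 by -2.56, Atf3 by -3.02, Asns by -1.42 and Trib3 by -0.91. Atf4 and Chac1 differed the other way, by 0.15 and 1.55. With the slide as a block, which leaves the PKm2 knock-in day 7 array without weight, 3 of the 9 were called at day 3, namely Asns, Vldlr and Nupr1, beside 587 of all genes, while Atf3 (limma adjusted p = 0.0592) and Trib3 (0.0632) were not.

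Calls over all genes, these among them, rested on single arrays. Without PKm1 knock-in day 0, PKm1 knock-in day 3, wild type day 0 or wild type day 3 none of the 9 was called, and the calls over all genes were 2, 5, 17 and 10, against 610. Without the PKm1 knock-in line or the wild type line no gene on the array was called. Of the 9, 2 were called without PKm2 knock-in day 0, PKm2 knock-in day 3 or wild type day 7, and 3 without the PKm2 knock-in line. Over all 12 such fits, each without 1 array or 1 line, the log2 change ran between -4.34 and -3.14 for Vldlr, between -3.43 and -2.51 for Nupr1 and between -6.35 and -4.16 for Atf3, and all 9 genes were lower in each.

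**Figure D2:**
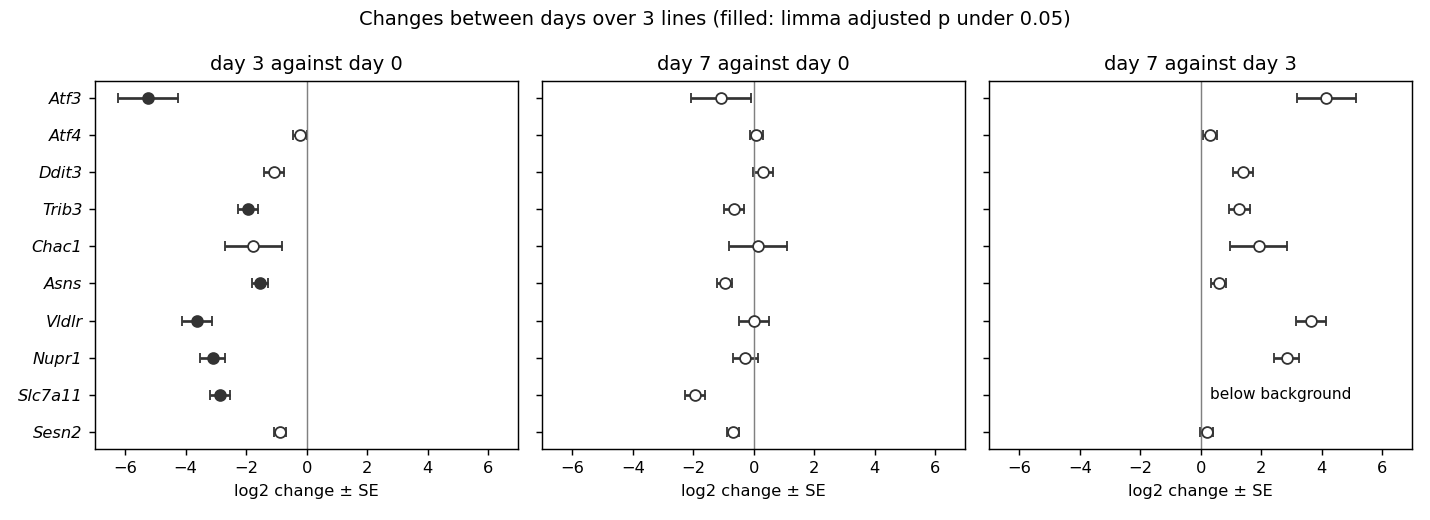
Log2 change (horizontal axis) of each gene in the 3 day comparisons with its SE from limma over 3 lines. Filled points have an adjusted p under 0.05 and appear only at day 3 against day 0. The Slc7a11 points are fitted values that depend on the floor of the scale, so its filled point is not counted in the text, and it is below background at both days of the last panel.

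At day 7 against day 3 the 9 genes measured on all arrays were higher in each of the 3 lines, apart from Sesn2 in the PKm2 knock-in line, whose difference was 0.00. None was called by limma, as for 0% of all genes tested, while at an unadjusted p under 0.05 there were 5 of the 9 genes and 30.4% of all genes. Vldlr differed by 3.63 ± 0.50 and Nupr1 by 2.83 ± 0.42 on the log2 scale, each with an adjusted p of 0.0692. Atf3 differed by 4.15 ± 0.99 (limma adjusted p = 0.0848), Ddit3 by 1.39 ± 0.33 (0.0837) and Trib3 by 1.28 ± 0.34 (0.0906). The arrays of the days did not overlap for 7 of the 9 genes, against 10.1% of genes in that direction. No line had its day 3 and day 7 arrays on the same slide. With the slide as a block, Vldlr (4.10, limma adjusted p = 0.0316) and Nupr1 (3.06, 0.0219) were called, beside 1053 of all genes. That fit leaves the PKm2 knock-in day 7 array without weight.

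Set against day 0, the genes stood at unlike levels at day 7, and 0 of the 9 were called by limma (background 0.0999%), with 2 at an unadjusted p under 0.05 (14.3% of genes). Vldlr differed by 0.01 ± 0.50, Nupr1 by -0.28 ± 0.42 and Atf4 by 0.08 ± 0.22 on the log2 scale. Asns differed by -0.96 ± 0.25 (limma adjusted p = 0.196) and Sesn2 by -0.69 ± 0.20 (0.223), and for these all day 7 arrays lay under all day 0 arrays, as for 8.75% of genes. Within a slide, Asns differed by -1.32 in PKm1 knock-in and -0.65 in wild type, and Sesn2 by -0.73 and -0.79. In an F test over the 3 days, 2 of the 9, Vldlr and Nupr1, were called (limma adjusted p = 0.0408 each, background 1.18%).

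Between lines, 0 of the 10 genes were called by limma in PKm1 knock-in against wild type or in PKm2 knock-in against wild type (background 0.0133% in each), or in PKm2 knock-in against PKm1 knock-in (0%). At an unadjusted p under 0.05 there was 1 in each comparison with wild type (12.1% and 13.3% of genes) and 0 between the knock-in lines (7.77%). The first was Ddit3, higher in PKm1 knock-in than in wild type by 0.82 ± 0.33 (limma adjusted p = 0.383). The other was Atf4, higher in PKm2 knock-in than in wild type by 0.74 ± 0.22 (limma adjusted p = 0.228), and all 3 PKm2 knock-in arrays lay above all 3 wild type arrays, as for 7.92% of genes in that direction. In PKm1 knock-in Atf4 was 0.43 ± 0.22 above wild type (limma adjusted p = 0.509), again without overlap (4.9% of genes). With both knock-in lines sharing the wild type arrays, these comparisons are not independent.

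Over the 9 arrays the 10 genes followed each other to unlike degrees. The Pearson correlation of a pair had a median of 0.73 and ran between -0.19 for Atf4 with Sesn2 and 0.97 for Vldlr with Nupr1. Atf4 correlated with the mean of the 10 at 0.37, and Trib3, Atf3, Nupr1 and Vldlr at 0.96 to 0.98. That mean contains each of these genes, and genes with a wide range weigh most in it, so part of this is built in. The median correlation with the other members was 0.33 for Atf4, 0.75 for Vldlr, 0.78 for Atf3, 0.81 for Nupr1 and 0.83 for Trib3. These describe 9 arrays that share days and lines. Outside all lists the genes closest to the mean were Cept1 and Pde4dip (0.97 each), Rnf150 and Abca5 (0.96 each) and Vps8, Six3os1, Cpq and Hrk (0.95 each). Of these, Rnf150 and Cpq were well above background on 6 arrays and Six3os1 on 3, and Six3os1 was at the floor at day 3. The mean takes in Slc7a11, which was well above background on the day 0 arrays alone. Of single genes, Nupr1 was closest to Jdp2 (0.98), Vldlr to Vps8 and Slc6a9 (0.98 each), Trib3 to Cept1 and Aldh18a1 (0.97 each), Asns to Trappc9 (0.99), Sesn2 to Rbl1 (0.99), Atf4 to Ldhd (0.96) and Map1lc3b (0.95) and Chac1 to Mei4 (0.97).

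Further genes of the pathway were read from lists chosen by role, with earlier results of these data known, so that counts over a list are descriptions. Over all 15013 genes tested, 6427 had a negative and 8586 a positive change at day 3, with 331 called lower and 279 higher. Of 11 other factors and stress effectors, 10 were well above background on all 9 arrays, that is, all but Fgf21. All 11 had a negative change at day 3 and 3 were called lower, with a median of -1.24. These counts and the median take in Fgf21, so that the calls among measured genes are those of Cebpb and Atf5. Cebpb, a C/EBP partner of ATF4, fell by 2.30 ± 0.22 (limma adjusted p = 0.0121) and Atf5, a factor translated like Atf4, fell by 2.10 ± 0.29 (0.0252) on the log2 scale. Fgf21, a secreted hormone and also among the 3 called, was below background at day 3 and at least 2.78-fold lower there. Since it passed the filter only through day 0 and day 7 arrays, this is given as a description, with no test.

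Of 18 amino acid transport and synthesis genes, 6 were called lower and 0 higher, with a median of -0.81. These were Aldh1l2, a mitochondrial folate enzyme (log2 change -3.79 ± 0.36), the glycine transporter Slc6a9 (-2.31 ± 0.43), Pck2, the mitochondrial PEP carboxykinase (-2.20 ± 0.34), Cth, which makes cysteine (-1.55 ± 0.30), Aldh18a1 and Mthfd2. At day 7 against day 3 Aldh1l2 differed by 2.51 ± 0.36 (limma adjusted p = 0.0692), and 0 of the 18 were called in either comparison of day 7.

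Aminoacyl-tRNA synthetases showed no call at day 3 in either list. The 12 known as ATF4 targets had a median log2 change of -0.32, with 9 negative, and Sars (-0.74 ± 0.22, limma adjusted p = 0.106) and Mars1 (-0.70 ± 0.21, 0.108) had the smallest p. The 8 others had a median of 0.37, with 7 positive, led by Hars (0.70 ± 0.20, 0.0953) and Kars (0.73 ± 0.22, 0.107). The C/EBP-ATF element was in windows of 5 of 8 genes of the first list that matched the RefSeq table and in 0 of 5 of the second. Since the first list was chosen as known ATF4 targets, this difference is a description and not a test.

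Of the 14 kinases and eIF2 control genes none was called, with a median of 0.21. Ppp1r15a, which encodes GADD34, the stress-induced subunit that directs dephosphorylation of eIF2, had the smallest p at -1.12 ± 0.29 (limma adjusted p = 0.0808). Eif2b1, a subunit of the exchange factor for eIF2, came next at 0.69 ± 0.21 (0.106).

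The 16 ER chaperone and unfolded protein response genes, targets of the ATF6 and XBP1 arms, had a median of 0.43 with 13 positive and 1 called higher, Manf, a secreted ER protein (1.17 ± 0.23, limma adjusted p = 0.0473). The 10 NRF2 targets, which share redox roles with Slc7a11, had a median of 0.17, and G6pdx rose (1.18 ± 0.20, 0.0368).

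**Figure D3:**
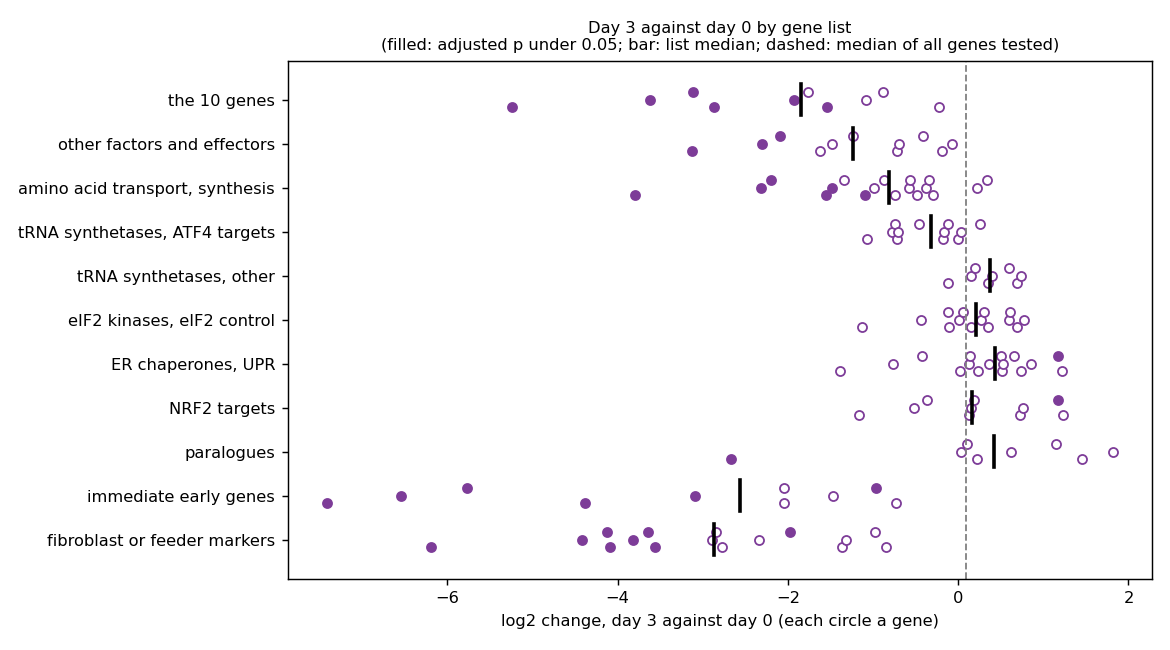
Log2 change at day 3 against day 0 (horizontal axis) of each gene, by list. Filled circles are called at an adjusted p under 0.05, bars are list medians and the dashed line is the median of all genes tested (0.09). The 10 genes, the other factors, the amino acid list, the immediate early genes and the fibroblast markers have medians of -0.81 or lower. The synthetases known as ATF4 targets have a median of -0.32. The lists for eIF2 control, other synthetases, ER chaperones, NRF2 targets and paralogues have medians above 0.

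Of the 8 paralogues of these genes that were tested, only Jdp2, the closest relative of Atf3, was called lower at day 3 (-2.67 ± 0.48, limma adjusted p = 0.0421), and it also holds the C/EBP-ATF element. Lrp8, a receptor related to Vldlr, had a log2 change of 0.03 ± 0.33. Trib2 had 1.45 ± 0.44 (0.107) and Trib1 0.10 ± 0.43. Sesn1 had 1.15 ± 0.30 (0.0812) and Sesn3 0.62 ± 0.29 (0.232), opposite in sign to Sesn2, and Chac2 had 0.22 ± 0.31. Differences between paralogues were not tested.

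Other sets of genes moved with the day. Immediate early genes, which respond within minutes to serum or handling, had 6 of 10 called lower at day 3, with a median of -2.57. Fos fell by 7.41 ± 0.70, Fosb by 5.76 ± 0.84 while Egr1 fell by 4.39 ± 0.83, on the log2 scale, and Egr2 had a mean 54.9-fold lower at day 3 with each dim array raised to its detection limit (limma adjusted p = 0.0121 to 0.0442 over these genes). At day 7 against day 3 their median was 0.10, where the 9 stress response genes had 1.39. The part of handling or serum in the day 0 levels of Atf3 and the rest was not tested.

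Of 16 markers of fibroblasts or feeder cells, 8 were called lower at day 3, with a median of -2.87, and 3 were called lower at day 7 against day 0. Only 6 of the 16 were well above background on all 9 arrays. Any that was dim on all day 3 arrays passed the filter only through day 0 and day 7 arrays. The calls and the median are therefore a description. The log2 of the markers' summed signal was 9.86 to 10.91 at day 3 and 12.43 to 14.34 at day 0. At day 7 it was 12.64 in PKm1 knock-in, 9.57 in PKm2 knock-in and 12.27 in wild type. At day 3, 8 of the 16 markers were well above background in PKm1 knock-in, 8 in PKm2 knock-in and 12 in wild type, against 15 in each line at day 0. The sources used here do not give whether feeder cells were used, and their part in the day 3 change was not tested. In the PKm2 knock-in line the log2 of the summed marker signal was 9.57 at day 7 and 9.86 at day 3. There the median log2 difference of the 9 genes at day 7 against day 3 was 0.78. It ran between 0.00 for Sesn2 and 2.11 for Nupr1, with Atf4 at 0.28.

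Visceral endoderm markers separated the day 7 arrays. The mean centred log2 level of the 11 tested was 7.25 in PKm1 knock-in, 1.02 in PKm2 knock-in and 2.01 in wild type at day 7, and all 11 were well above background on each of these arrays. Only 4 of the 11 were so on all 9 arrays. Any that was dim on all day 0 and day 3 arrays passed the filter only through day 7, so these levels are a description. The PKm1 knock-in day 7 array also had the highest Atf3 (12.42), Ddit3 (10.28) and Vldlr (11.42) of all arrays. The rest of the 10 genes, Atf4, Trib3, Chac1, Asns, Nupr1, Slc7a11 and Sesn2, were highest on other arrays. The relation of these genes to the markers was not tested. None of the visceral endoderm, blood, neural and cardiac markers was called by limma in a day comparison, and of the 10 ES cell markers 2 were called lower at day 3, Klf4 and Tbx3, and 0 at day 7.

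**Figure D4:**
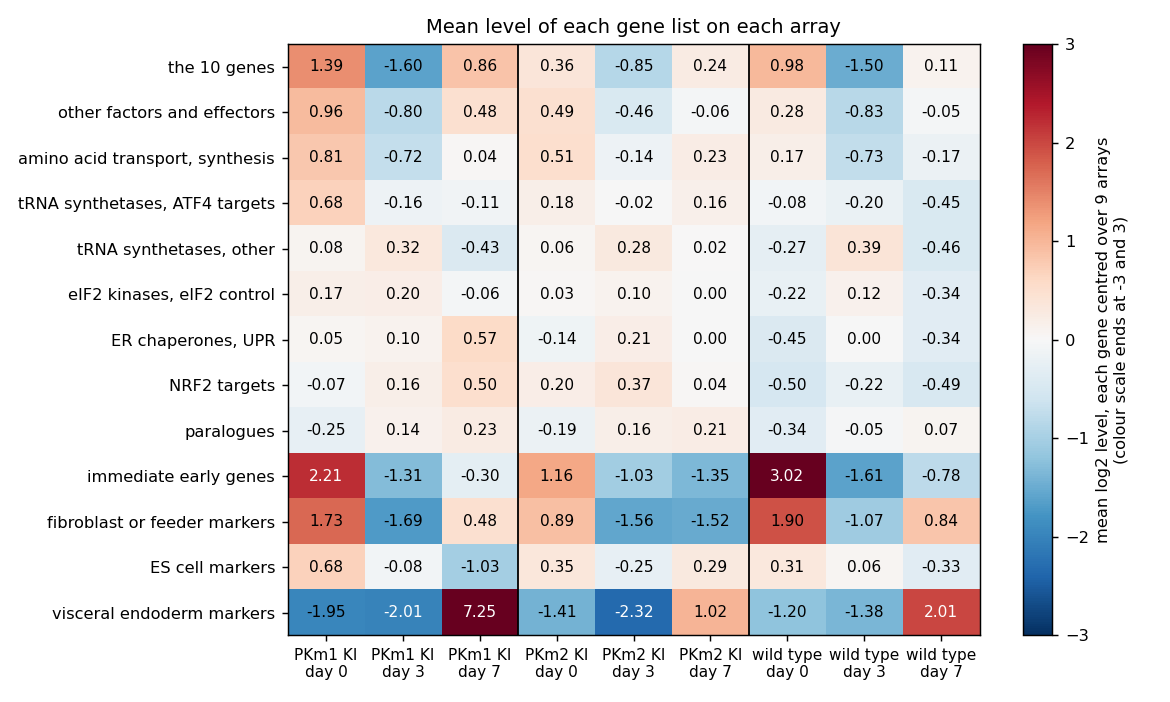
Mean log2 level of each gene list on each array (columns, by line and day), with each gene centred over the 9 arrays. The 10 genes are at -1.60, -0.85 and -1.50 on the day 3 arrays of PKm1 knock-in, PKm2 knock-in and wild type, under every day 0 and day 7 array, and the ER chaperone row does not follow them.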

How the data were processed

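RNA of 9 samples was labelled with Cy3 and hybridised to 1 array each. The intensity values were deposited by the authors as scanner output. Per the submitters' processing notes the software was Agilent Feature Extraction 10.10, and per the file headers its processed signal has background subtracted. The deposited value table differs from that signal by at most 0.497%. Each array held 62976 spots, of which 3671 controls were left out. Between 54.2% and 61.6% of spots were well above background and 0 were saturated, and the number of arrays limits the precision (median SE 0.26, log2).

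Signals were scaled to each array's 75th percentile (common value 487), floored at 5 and log2 transformed. Probes were named by RefSeq accession, with 27235 of 55681 matched to 1 symbol. Those well above background on at least 3 arrays were kept, and the brightest stood for a gene, giving 15013 genes. An additive model of line and day was fitted in limma 3.58.1 (R 4.3.3) on all 9 arrays, with Benjamini-Hochberg adjustment over all genes and a threshold of 0.05, and was tested on simulated data. The line acts as the block of the day comparisons, because the samples of a line share its cells. Python 3.11.15, numpy 2.4.6, pandas 2.3.3 and matplotlib 3.10.9 were used for the other steps.

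The genes named are the 10 members, the paralogues (some are not reported here), and of each other list up to 4 called genes with the largest change, or the 2 with the smallest p. Genes most like the 10 were taken by correlation. Aldh18a1, Mthfd2 and the marker genes were added to these. Members and lists were chosen with earlier results of these data known. Genes in lists that were not tested are Pycr1, Slc7a10, Lum, Apoa1, Hbb-y, Hba-x, Cdh5, Neurog2 and Actc1. Alternatives covered background correction, normalization, filter, floor, probe choice, moderation, blocks, thresholds and leaving out arrays or lines.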

Additional observations from a re-analysis of the deposited data

Results flagged for a closer look

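Opposite moves of at least 2-fold in 2 lines, or on 2 days, were seen for 3 genes. Each rests on 1 array per line and day, and the difference between the moves was not tested.

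Chac1 was 1.55 higher at day 3 than at day 0 in the PKm2 knock-in line on the log2 scale, while the same difference was -3.46 in PKm1 knock-in and -3.38 in wild type. At day 7 against day 0 it was 2.52 in PKm2 knock-in and -1.04 in wild type. PKm2 knock-in against wild type it was 1.86 at day 3 and -3.07 at day 0, and PKm2 knock-in against PKm1 knock-in it was 1.55 at day 3 and -3.46 at day 0. The day 3 and day 0 arrays of PKm2 knock-in share slide 1.

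Atf3 was 1.78 higher in PKm2 knock-in than in PKm1 knock-in at day 3, and the difference was -3.40 at day 7. Vldlr differed between the same lines by 1.26 at day 3 and by -1.39 at day 7.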

How the results depend on the processing

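The counts of the 10 genes and of all genes called moved with several choices, and the cause was not tested. The counts of the 10 take in Slc7a11, which passed the filter only through day 0. At day 3 against day 0, 6 of the 10 genes (5 of the 9) and 610 of all genes were called. The count was also 6 with no replicate block for the line. It was 1, Slc7a11, with no filter, where more genes are tested. Of all genes, 920 were called with normexp, 125 with no filter, 995 with trend and robust moderation, 1416 with only the 6 arrays compared and 1756 at an adjusted p under 0.1. At day 7 against day 3, 0 of the 10 were called, but 2 with normexp, with a filter on all 9 arrays, with trend and robust moderation or with the slide as a block, and 5 at an adjusted p under 0.1. For all genes, that comparison gave 36, 81, 256, 1053 and 1850 under these settings, 5 with scaling to detected probes and 6 with no replicate block, against 0. At day 7 against day 0, the count of all genes was 15, but 5 with quantile normalization, 6 with scaling to detected probes, 4 with no filter, 1 with a filter on all 9 arrays, 23 with trend and robust moderation, 8 with no replicate block, 0 with only the 6 arrays and 60 at an adjusted p under 0.1. In the F test over days, 3 of the 10 and 177 genes were called, but 5 and 556 with normexp, 0 and 3 with no filter, 5 and 411 with a filter on all 9 arrays, 6 and 693 with trend and robust moderation, 4 of the 10 with no replicate block and 8 and 1549 at an adjusted p under 0.1, and 732 genes with the slide as a block. Between lines the counts of all genes stayed low. In PKm1 knock-in against wild type it was 2, but 5 with normexp, 4 at an adjusted p under 0.1, 0 with only the 6 arrays and 1 with no filter, a filter on all 9 arrays, a floor of 1 or the slide. In PKm2 knock-in against wild type it was 2, but 18 with normexp, 7 at an adjusted p under 0.1, 0 with only the 6 arrays or the slide and 1 with no filter, a filter on all 9 arrays or a floor of 1 or 20. The F test over lines gave 2, and 1 under no filter, a filter on all 9 arrays, either floor, trend and robust moderation or the slide.

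Leaving out an array or a line gave 0 to 6 of the 10 and 0 to 1317 of all genes at day 3 against day 0, 0 to 6 and 0 to 2591 at day 7 against day 3, 0 to 1 and 0 to 193 at day 7 against day 0, 0 to 6 and 0 to 2110 in the F test over days, and 0 to 2 of all genes in each comparison with wild type and in the F test over lines. The highest counts of all genes at each pair of days came without the PKm2 knock-in day 7 array.

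The log2 changes of Atf4, Ddit3, Chac1 and Vldlr at day 7 against day 0 turned sign under some alternatives, and those of the other 6 genes did not. With the slide as a block Atf4 was at -0.0014 and Chac1 at -0.21. Over the fits that leave out an array or line, Atf4 ran between -0.10 and 0.28, Ddit3 between -0.060 and 0.53, Chac1 between -1.27 and 0.87 and Vldlr between -0.31 and 0.47. At day 3 against day 0, all 10 genes stayed lower under each alternative run. Atf3 was not called with quantile normalization (adjusted p 0.0558), no filter or the slide as a block, and Trib3 not with the last 2 of these. Asns, Vldlr and Nupr1 were not called with no filter. Slc7a11 was not called with normexp or a floor of 20. Sesn2 was called in 5 of 13 processing settings with an adjusted p down to 0.0337.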
